A study of Mus musculus with 9 samples.

Results

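The genes Pax6, Emx1, Emx2, Lhx2, Lhx9, Nr2f1 and Nr2f2 encode transcription factors that pattern the dorsal telencephalon and its areas. They were taken by symbol as a set of 7 among the 34590 genes counted. All 7 were found and all 7 passed the filter on low counts, each with at least 450 counts in every library. The telencephalon is the forebrain division that gives rise to cortex and basal ganglia. Total RNA came from telencephalons of midgestation (E12.5) mouse embryos on a background given as mixed lineage. The 4 double-knockout (dKO) libraries were from embryos labelled Lats1/2 dko, with Nestin-Cre according to the series design. The 5 control libraries were from embryos labelled wild type (WT), and the labels do not say whether these carried Cre. The kinases Lats1 and Lats2 act in the Hippo pathway, where they hold back the coactivators YAP and TAZ. Nestin-Cre acts in neural progenitors and their offspring, so vessel, meningeal and blood cells of a dKO telencephalon lie outside its main reach. Cells were counted and synthetic ERCC spike-in RNAs were added per cell number before extraction, so levels can be read per cell as well as against the rest of the library.

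Within the cortical primordium these factors work as overlapping gradients rather than as switches. Pax6 is highest rostrolaterally and Emx2 caudomedially, the pair restrain one another, and Nr2f1 (COUP-TFI) and Nr2f2 (COUP-TFII) are strongest caudally. Lhx2 is a LIM homeodomain selector that gives cells cortical identity and limits the cortical hem, a medial signalling centre. Emx1 marks dorsal progenitors and the excitatory neurons they make. Lhx9, a close relative of Lhx2, is used in the medial pallium and in parts of the diencephalon, the neighbouring forebrain division. A bulk library averages all of these territories, so fewer cells of a type and less RNA per cell cannot be told apart in any value given here.

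The promoters of 4 of the genes are printed because the results turn on these genes. Emx1 is the gene that fell against the rest of the library, and Emx2, Lhx9 and Nr2f2 shared their high and low WT libraries, WT 1 and WT 5 against WT 2, 3 and 4. Each sequence is the stretch of 250 bases before the gene's first RefSeq start in the build GRCm38.p6, read 5′ to 3′ on the gene's own strand, with every CG pair in capitals. The Emx1 window is chr6:85187681-85187930 on the plus strand, and that of Emx2 is chr19:59458440-59458689 on the plus strand. The Lhx9 window is chr1:138842445-138842694 on the minus strand, and that of Nr2f2 is chr7:70366747-70366996 on the minus strand.
Emx1: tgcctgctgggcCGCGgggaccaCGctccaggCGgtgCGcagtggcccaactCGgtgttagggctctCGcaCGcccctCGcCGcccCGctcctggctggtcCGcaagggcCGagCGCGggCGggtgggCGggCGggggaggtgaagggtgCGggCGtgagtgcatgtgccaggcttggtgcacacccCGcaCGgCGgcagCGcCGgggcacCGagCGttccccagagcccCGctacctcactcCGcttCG
Emx2: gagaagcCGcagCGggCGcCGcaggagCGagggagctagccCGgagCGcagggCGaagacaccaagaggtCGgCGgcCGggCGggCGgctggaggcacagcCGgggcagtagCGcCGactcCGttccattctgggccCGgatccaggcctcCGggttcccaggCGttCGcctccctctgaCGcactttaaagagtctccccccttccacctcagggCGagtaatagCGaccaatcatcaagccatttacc
Lhx9: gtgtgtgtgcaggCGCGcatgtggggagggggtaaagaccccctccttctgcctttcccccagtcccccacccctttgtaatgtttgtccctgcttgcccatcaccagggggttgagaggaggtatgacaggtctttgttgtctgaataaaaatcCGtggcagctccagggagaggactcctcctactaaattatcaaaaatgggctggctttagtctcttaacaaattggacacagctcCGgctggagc
Nr2f2: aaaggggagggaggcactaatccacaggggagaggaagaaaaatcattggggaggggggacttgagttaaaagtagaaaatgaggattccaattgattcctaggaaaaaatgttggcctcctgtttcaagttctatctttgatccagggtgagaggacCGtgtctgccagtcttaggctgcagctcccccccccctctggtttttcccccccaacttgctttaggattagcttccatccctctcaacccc

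The windows of Emx1 and Emx2 were dense in CG pairs, with 30 and 24, and those of Lhx9 and Nr2f2 were poor in them, with 4 and 1. The median over all 32851 RefSeq windows of this length was 6. Fewer CG pairs than in the Emx1 window were found in 94.1% of those windows, and fewer than in the Nr2f2 window in 7.87%. All 7 genes matched the table, with 10 windows between them. Those of Pax6 (15 in each), Lhx2 (25 and 24) and the first window of Nr2f1 (22) were also above the median, and the other window of Nr2f1 held 2. The motif GGAATG, a core bound by the TEAD factors through which YAP and TAZ act, was searched on both strands and occurred in 0 of the 10 windows, against 12.6% of all windows. The TATA box TATAAA, searched the same way, occurred in 0 of the 10, against 12.4%. These counts describe the letters of the windows and do not bear on where any factor binds.

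Gene counts numbered 16566763 to 45803152 in the dKO libraries and 12906561 to 39263370 in the WT libraries, and the groups' depths did not differ beyond their spread (two-sided exact permutation test, p = 0.833). Lats1 averaged 59.8 ± 1.07 CPM (counts scaled to a common library size by TMM) in dKO and 132 ± 4.55 CPM in WT (SD, n = 4 and 5). Lats2 was higher in dKO, at 43.4 ± 9.46 CPM against 27.0 ± 6.18 CPM in WT, so its level does not check its label. The labelled tissue was checked by dorsal and ventral markers, which were present in every library: dorsal neurogenic genes summed to 379 to 644 CPM in dKO and 476 to 833 CPM in WT, and ventral telencephalon genes to 361 to 564 CPM in dKO and 713 to 807 CPM in WT. Gene counts per spike-in count were 79.1 ± 5.90 in dKO and 58.1 ± 6.10 in WT, a ratio of 1.36 (two-sided exact permutation test, p = 0.00794, the lowest possible value with 126 assignments). WT libraries 2, 3 and 4 stood apart, with 39.3% to 41.3% of reads in no gene, against 32.0% to 35.6% in the 4 dKO libraries, 34.4% in WT 1 and 32.5% in WT 5. Relative results that passed are also given without these 3 libraries, as values or as counts per list.

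Read per cell, 6 of the 7 factors were higher in dKO, as were most genes. Read against the rest of the library, Emx1 was lower in dKO and the other 6 did not pass the test. Per cell, 61.1% of the 17182 genes tested were higher in dKO and 0.698% lower (edgeR's quasi-likelihood test at an adjusted p under 0.05 by Benjamini-Hochberg), so 6 rises in 7 are close to what most genes did. Leaving out WT 2, dKO 2 or dKO 3 alone left 2 of the 6 rises, those of Pax6 and Lhx2. Of the 7 factors, 0 were lower per cell, also at an unadjusted p under 0.05, with DESeq2 and with limma-voom. Relative to all genes, 13.7% of genes were higher and 12% lower, and of the 7 factors 0 were higher and 1 was lower. The count of 0 higher was the same at an unadjusted p under 0.05, with DESeq2 and with limma-voom. At an unadjusted p under 0.05, 2 of the 7 were lower. A share of 1 in 7 lies near the background of 12%, so this result concerns Emx1 and not the set.

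The median log2 fold change of the 7 was 0.33 per cell, against 0.43 over all genes tested, and -0.11 relative to the library, against -0.01 over all genes. Their values ran from 0.13 to 0.39 per cell and from -0.30 to -0.05 relative to the library. All 7 lay below the median of all genes under both scalings, though not far below it for most. Pax6 and Lhx9 ranked above 42.7% and 42.9% of genes by relative fold change, and Emx1 above 14.7%. Left without WT 2, 3 and 4, the relative median of the 7 was -0.20, against -0.01 over all genes, and 0 of the 7 passed (2 lower at an unadjusted p under 0.05, edgeR).

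**Figure D1:**
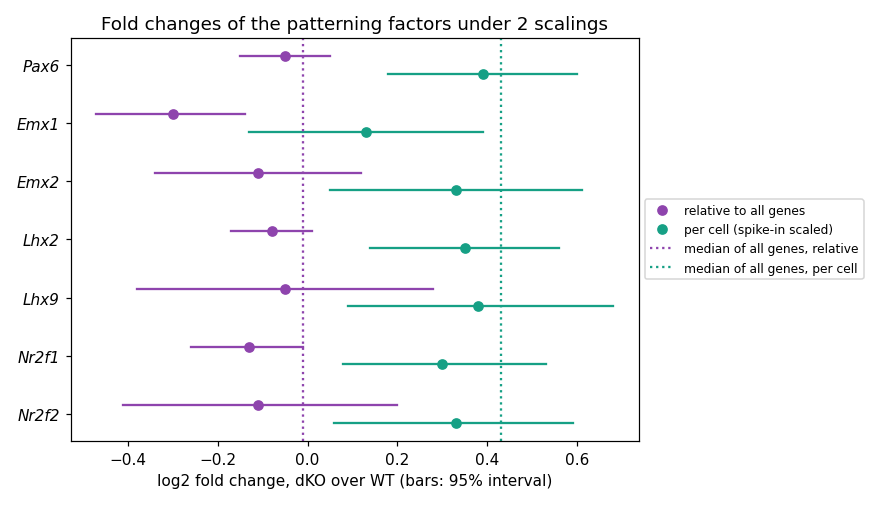
Log2 fold change of each gene, dKO over WT, on the x axis, relative to all genes (TMM scaling, purple) and per cell (spike-in scaling, green). Points are edgeR estimates, bars are 95% intervals and dotted lines are the medians of all genes, -0.01 and 0.43; only the relative interval of Emx1 lies well below 0, from -0.47 to -0.14.

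Emx1, the homeobox gene of dorsal progenitors and their excitatory neurons, fell in dKO against the rest of the library. It had 39.5, 38.5, 42.0 and 44.2 CPM in dKO libraries 1 to 4, against 45.2, 50.6, 53.9, 56.5 and 46.5 CPM in WT libraries 1 to 5. Every dKO library lay below every WT library, which 9.74% of genes also did, but dKO 4 and WT 1 nearly met, at 44.2 and 45.2 CPM. The means were 41.0 ± 2.57 CPM in dKO and 50.5 ± 4.80 CPM in WT (SD, n = 4 and 5), a relative log2 fold change of -0.30 (SE 0.07, edgeR adjusted p = 0.0112) or 0.81-fold. WT 1 and WT 5 were the low WT libraries and WT 2, 3 and 4 the high ones. Without WT 2, 3 and 4 the relative value was -0.17 (edgeR adjusted p = 0.263), and 0.972% of genes passed as lower and 2.33% as higher in that smaller fit. Without WT 1 and WT 5 it was -0.39 (edgeR adjusted p = 0.00135), where 15.5% of genes passed as lower. Left without any single library, the fall kept its direction and passed each time, at -0.34 to -0.25.

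Per cell, Emx1 had 2.76, 3.25, 3.30 and 3.64 counts per 1000 spike-in counts in dKO libraries 1 to 4, against 2.45, 2.52, 3.43, 3.45 and 2.90 in WT libraries 1 to 5. The groups overlapped, with dKO 1, dKO 2 and dKO 3 inside the WT range and dKO 4 above it. The log2 fold change per cell was 0.13 (SE 0.13, 95% interval -0.13 to 0.39, edgeR adjusted p = 0.382). Emx1 was the one factor of the 7 that did not pass per cell.

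Emx2, the caudomedial paralog of Emx1, did not pass relative to the library. It had 28.4, 37.3, 32.9 and 27.5 CPM in dKO libraries 1 to 4, against 38.5, 32.4, 30.9, 30.6 and 38.2 CPM in WT libraries 1 to 5. The groups overlapped over most of their range, with WT 1, WT 5 and dKO 2 high and dKO 1 and dKO 4 low. The relative log2 fold change was -0.11 (SE 0.10, 95% interval -0.34 to 0.12, edgeR adjusted p = 0.487). Per cell Emx2 was at 2.50 ± 0.497 counts per 1000 spike-in counts in dKO and 1.98 ± 0.285 in WT, a log2 fold change of 0.33 (SE 0.14, edgeR adjusted p = 0.0360). This rise was 0.16 without WT 2, 3 and 4 (edgeR adjusted p = 0.437), and it did not pass without dKO 2 (0.20), WT 2 (0.26), WT 4 (0.31) or dKO 3 (0.31) alone, with edgeR adjusted p of 0.07 to 0.236.

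The pair of Emx genes thus had different patterns in the WT libraries: Emx1 was highest in WT 2, 3 and 4, at 50.6 to 56.5 CPM, where Emx2 was lowest, at 30.6 to 32.4 CPM. In WT 1 and WT 5 Emx1 was at 45.2 and 46.5 CPM and Emx2 at 38.5 and 38.2 CPM. Their count ratio, Emx1 over Emx2, was 1.33 ± 0.240 in dKO and 1.51 ± 0.305 in WT, a log2 difference of -0.18 (95% interval -0.63 to 0.27, exact permutation p = 0.389). Without WT 2, 3 and 4 this difference was 0.13.

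Pax6, the paired-domain factor of dorsal radial glia, did not pass relative to the library. It had 134, 135, 143 and 146 CPM in dKO libraries 1 to 4, against 154, 142, 134, 151 and 140 CPM in WT libraries 1 to 5. The groups overlapped, with dKO 1 level with the lowest WT library at 134 CPM. The relative log2 fold change was -0.05 (SE 0.05, edgeR adjusted p = 0.484), with a 95% interval of -0.15 to 0.05. Per cell Pax6 rose, with 9.35, 11.4, 11.2 and 12 counts per 1000 spike-in counts in dKO, against 8.35, 7.06, 8.56, 9.23 and 8.75 in WT. Every dKO library was above every WT library per cell, as was the case for 48.4% of genes, though dKO 1 only just. The log2 fold change per cell was 0.39 (SE 0.11, edgeR adjusted p = 0.00202), and without WT 2, 3 and 4 it was 0.36 (edgeR adjusted p = 0.0242).

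Lhx2, the cortical selector, behaved like Pax6 and was the most abundant of the 7 per length. It had 204, 179, 187 and 196 CPM in dKO libraries 1 to 4, against 205, 199, 195, 209 and 203 CPM in WT libraries 1 to 5. The groups overlapped, with dKO 2 and dKO 3 below all WT libraries. The relative log2 fold change was -0.08 (SE 0.04, 95% interval -0.17 to 0.01, edgeR adjusted p = 0.182). Per cell Lhx2 rose, to 14.2, 15.1, 14.7 and 16.1 counts per 1000 spike-in counts in dKO libraries 1 to 4, against 11.1, 9.88, 12.4, 12.7 and 12.7 in WT. Pax6 and Lhx2 were the 2 factors whose dKO and WT libraries did not overlap per cell. The log2 fold change of Lhx2 per cell was 0.35 (SE 0.10, edgeR adjusted p = 0.00412). These 2 were also the factors that still passed per cell without WT 2, 3 and 4, where 48.2% of genes did, with Lhx2 at 0.34 (edgeR adjusted p = 0.0324).

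Lhx9, the LIM homeodomain gene of medial pallium and diencephalon, differed more within each group than between them. It had 48.5, 57.3, 57.9 and 36.0 CPM in dKO libraries 1 to 4, against 61.7, 46.2, 45.3, 44.3 and 62.2 CPM in WT libraries 1 to 5. WT 1 and WT 5 were the highest of all 9 libraries and dKO 4 the lowest, with the rest between them. The coefficient of variation was 20.5% in dKO and 17.6% in WT, against medians of 6.20% and 5.34% over the 10592 genes with a mean of at least 10 CPM. The relative log2 fold change was -0.05 (SE 0.15, edgeR adjusted p = 0.850), with a 95% interval of -0.38 to 0.28 that is the widest of the 7. It was -0.31 without WT 2, 3 and 4 (edgeR adjusted p = 0.344) and 0.15 without WT 1 and WT 5 (edgeR adjusted p = 0.432), so its direction depended on the WT libraries used. Per cell Lhx9 was at 3.94 ± 0.899 counts per 1000 spike-in counts in dKO and 3.02 ± 0.609 in WT, a log2 fold change of 0.38 (SE 0.14, edgeR adjusted p = 0.0211). Without WT 2, 3 and 4 that value was 0.12 (edgeR adjusted p = 0.538), and it did not pass without dKO 2 (0.27), WT 2 (0.30) or dKO 3 (0.31) alone, with edgeR adjusted p of 0.0654 to 0.115.

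Nr2f1, the nuclear receptor that specifies caudal and sensory cortical areas, had 175, 188, 192 and 161 CPM in dKO libraries 1 to 4, against 192, 189, 189, 195 and 216 CPM in WT libraries 1 to 5. WT 5 was well above the other WT libraries and dKO 4 well below the other dKO libraries. The groups overlapped, since dKO 3 was level with WT 1 at 192 CPM and above WT 2 and WT 3 at 189 CPM. The relative log2 fold change was -0.13 (SE 0.06, 95% interval -0.26 to -0.01), with an unadjusted p = 0.0415 and an adjusted p = 0.115 (edgeR), so it did not pass. Per cell it was at 14.1 ± 1.66 counts per 1000 spike-in counts in dKO and 11.4 ± 1.56 in WT, a log2 fold change of 0.30 (SE 0.11, edgeR adjusted p = 0.0185). Without WT 2, 3 and 4 this was 0.24 (edgeR adjusted p = 0.137), and it did not pass without dKO 2 (0.24), WT 2 (0.24) or dKO 3 (0.27) alone, with edgeR adjusted p of 0.0521 to 0.0877.

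Nr2f2, the other COUP-TF, had 82.7, 107, 95.7 and 62.8 CPM in dKO libraries 1 to 4, against 108, 91.8, 87.6, 77.5 and 107 CPM in WT libraries 1 to 5. Its high libraries were WT 1, WT 5 and dKO 2 and its lowest was dKO 4, which was also the lowest for Lhx9, Emx2 and Nr2f1. The coefficient of variation was 21.7% in dKO and 13.8% in WT. The relative log2 fold change was -0.11 (SE 0.14, 95% interval -0.41 to 0.20, edgeR adjusted p = 0.612). Per cell it was at 6.87 ± 1.73 counts per 1000 spike-in counts in dKO and 5.48 ± 0.865 in WT, a log2 fold change of 0.33 (SE 0.13, edgeR adjusted p = 0.0284). That value was 0.13 without WT 2, 3 and 4 (edgeR adjusted p = 0.464), and it did not pass without dKO 2 (0.17), WT 2 (0.27), WT 4 (0.28) or dKO 3 (0.28) alone, with edgeR adjusted p of 0.0559 to 0.26. In the fit without WT 1 and WT 5, where 55% of genes rose per cell, the same 6 factors passed as with all libraries, and Emx2, Lhx9 and Nr2f2 stood at 0.46, 0.58 and 0.47.

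**Figure D2:**
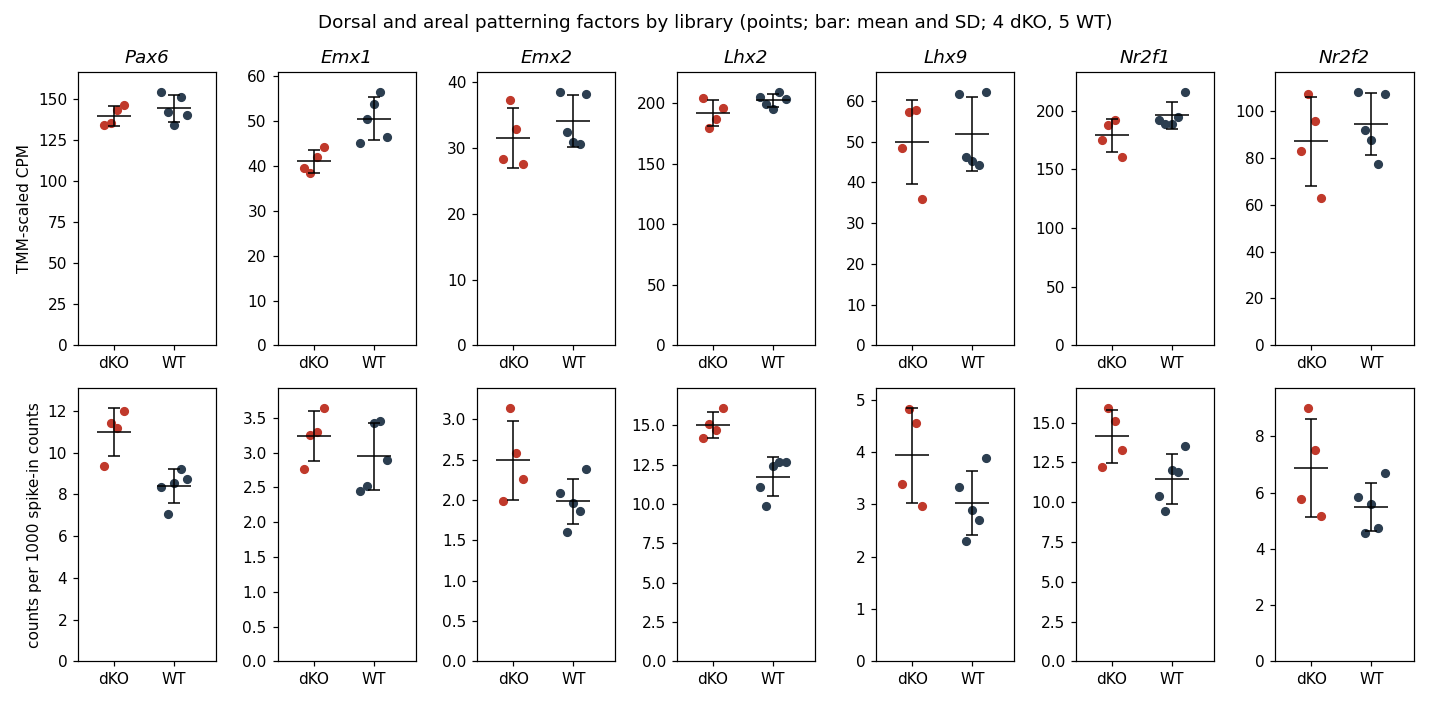
Level of each gene in each library, as TMM-scaled CPM (upper row) and as counts per 1000 spike-in counts (lower row), with dKO (red, n = 4) and WT (dark blue, n = 5); bars show mean and SD. Emx1 is the gene whose dKO CPM values, 38.5 to 44.2, all lie below the WT values, and Pax6 and Lhx2 are those whose dKO values per spike-in count all lie above them.

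The balance between opposing or paired factors was read from 5 ratios of counts within each library. Pax6 over Emx2, the rostrolateral against the caudomedial factor, was 4.70, 3.63, 4.35 and 5.32 in dKO libraries 1 to 4, against 4.00, 4.38, 4.35, 4.95 and 3.67 in WT libraries 1 to 5. The dKO libraries included both the lowest and the highest of the 9 values. The log2 difference was 0.07 (95% interval -0.24 to 0.38, exact permutation p = 0.635). Nr2f1 over Emx2 was 5.72 ± 0.471 in dKO and 5.79 ± 0.530 in WT, a log2 difference of -0.02 (95% interval -0.22 to 0.19, exact permutation p = 0.841). Nr2f2 over Nr2f1 was 0.483 ± 0.0730 in dKO and 0.481 ± 0.0593 in WT, a difference of 0.00 (95% interval -0.32 to 0.32, exact permutation p = 0.992). Lhx9 over Lhx2 was 0.263 ± 0.0642 in dKO and 0.257 ± 0.0435 in WT, a difference of 0.02 (95% interval -0.47 to 0.50, exact permutation p = 0.944). The groups overlapped in all 5 ratios, and the Benjamini-Hochberg adjusted p over the 5 exact permutation tests was 0.992 for each. The intervals allow shifts of up to 0.22 log2 units for Nr2f1 over Emx2 and of up to 0.63 for Emx1 over Emx2, so the 5 ratios differ in what they could have shown.

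Levels per length, as CPM per kilobase of exon, gave the order Lhx2, Nr2f1, Emx1, Pax6, Nr2f2, Emx2 and Lhx9 in both groups. In dKO Lhx2 was at 56.9 ± 3.22, Nr2f1 at 39.5 ± 3.10 and Emx1 at 26.3 ± 1.64 CPM per kilobase, and in WT they were at 60.1 ± 1.61, 43.3 ± 2.51 and 32.4 ± 3.07. Pax6 followed at 20.2 ± 0.858 in dKO and 20.9 ± 1.19 in WT, and Nr2f2 at 17.9 ± 3.90 and 19.4 ± 2.68. The Pax6 and Nr2f2 ranges overlapped within each group, so their order is not set apart from their spread. Emx2 was at 10.8 ± 1.55 CPM per kilobase in dKO and 11.7 ± 1.35 in WT, and Lhx9 was lowest, at 6.44 ± 1.32 and 6.70 ± 1.18. Exon lengths came from another annotation than the one used for counting, so these levels are approximate.

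The factors also differed in which libraries were high and low. The likeness of 2 genes was measured as the root mean square difference of their log2 CPM profiles, each centred on its mean over the 9 libraries. Of the 21 pairs, Pax6 and Lhx2 were nearest at 0.07, followed by Lhx9 and Nr2f2 at 0.08. The profiles were not scaled to the spread of each gene. Pax6 and Lhx2 varied little, with coefficients of variation of 2.66% to 5.69% within the groups. Their small distance thus does not show that they were high and low in the same libraries. Emx2 lay 0.11 from Nr2f2 and from Nr2f1, and Emx1 and Lhx9 were farthest apart at 0.35. Emx1 was lowest among the WT libraries in WT 1 and WT 5, the libraries in which Lhx9, Nr2f2 and Emx2 were highest.

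The summed markers of the diencephalon, of the endothelium and of erythroid cells were high and low in much the same libraries as Lhx9, Nr2f2 and Emx2. The summed level of 11 diencephalon markers was 42.7, 48.2, 40.0 and 26.0 CPM in dKO libraries 1 to 4, against 54.3, 30.9, 30.8, 27.2 and 50.6 CPM in WT libraries 1 to 5. It was high in WT 1, WT 5 and dKO 2 and low in dKO 4 and WT 4. An exception was dKO 1, where the marker sum was above its average while Lhx9, Nr2f2 and Emx2 were below theirs. Most of the sum came from Tcf7l2, Barhl2 and Sim1. Tcf7l2 had 13.2, 16.9, 15.9 and 11.2 CPM in dKO libraries 1 to 4. In WT libraries 1 to 5 it had 17.5, 13.8, 13.2, 12.4 and 13.4 CPM, so it was not high in WT 5. Barhl2 was at 11.9 CPM in WT 1 and 12 CPM in WT 5, against 6.19 to 8.14 CPM in WT 2, 3 and 4. Sim1, a hypothalamic and amygdalar factor, had 16.2, 11.3, 6.96 and 3.97 CPM in dKO libraries 1 to 4. In WT libraries 1 to 5 it had 20.0, 3.93, 6.78, 4.26 and 20.1 CPM. The high sum in WT 5 thus rested mostly on Sim1 and Barhl2 and does not stand for the 11 markers alike. Of the 11 markers, 3 were too low to test, at 0.831 CPM or less in any library, Shox2 and Foxb1 among them. Of the 8 markers tested, 0 were higher and 0 lower relative to the library (edgeR, and likewise DESeq2 and limma-voom; 1 was higher and 0 were lower at an unadjusted p under 0.05). Per cell 5 of the 8 rose, against 61.1% of all genes. The summed level of 7 dorsal neurogenic genes went the other way, at 546, 379, 456 and 644 CPM in dKO libraries 1 to 4, against 476, 727, 833, 798 and 583 CPM in WT libraries 1 to 5. The summed level of 8 endothelial markers was 278, 305, 334 and 242 CPM in dKO libraries 1 to 4, against 303, 276, 286, 258 and 328 CPM in WT libraries 1 to 5. It too was high in WT 1, WT 5 and dKO 2 and lowest in dKO 4, with dKO 3 its highest library. Vessels and mesenchyme also express Nr2f2. The summed level of 9 mesenchyme and pericyte markers was 803, 1130, 1030 and 1030 CPM in dKO libraries 1 to 4, against 910, 877, 896, 962 and 1090 CPM in WT libraries 1 to 5. It was high in dKO 2 and WT 5, but not in WT 1, and it was not low in dKO 4. For 5 erythroid markers the summed level was 2340, 3060, 2830 and 1790 CPM in dKO libraries 1 to 4. In WT libraries 1 to 5 that sum was 5810, 3280, 2270, 2370 and 3740 CPM. It was highest in WT 1 and WT 5 and lowest in dKO 4, and dKO 2 was the highest dKO library. An exception was WT 2, which was above dKO 2. The part of the dissected region, of vessels, of blood and of mesenchyme in the values of Lhx9, Nr2f2 and Emx2 was not tested.

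**Figure D3:**
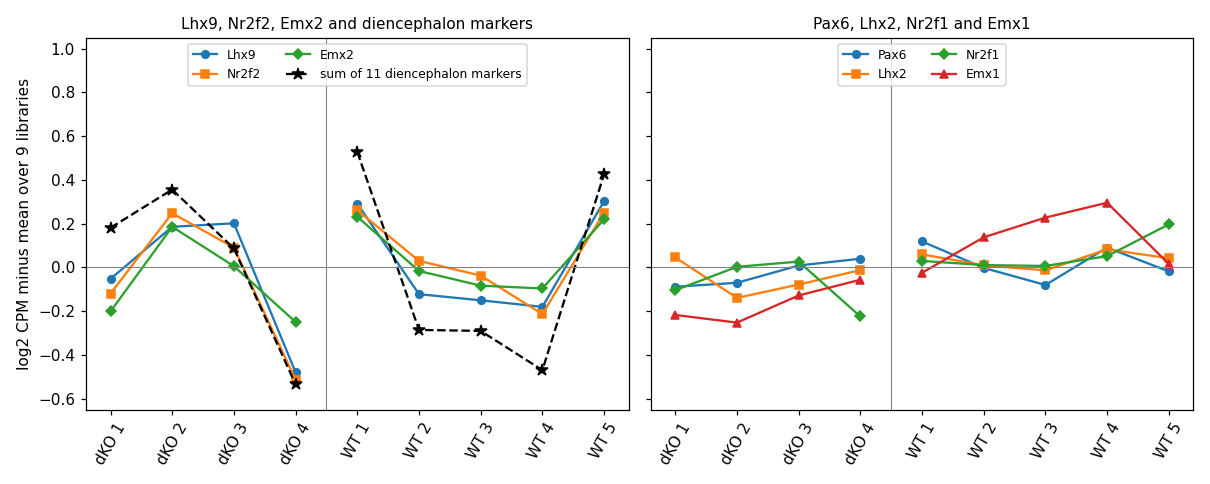
Log2 CPM of each gene minus its mean over the 9 libraries, by library, with dKO to the left of the vertical line and WT to the right; lines join libraries of 1 group only to guide the eye, and stars show the summed level of 11 diencephalon markers on the same scale. In the left panel Lhx9, Nr2f2, Emx2 and the marker sum are all high in WT 1, WT 5 and dKO 2 and low in dKO 4. In the right panel Emx1 is highest in WT 2, 3 and 4.

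Among the 10591 other genes with a mean of at least 10 CPM, the nearest profile to that of Lhx2 was that of 3110043O21Rik, at 0.024, and the nearest to that of Pax6 was Entpd5, at 0.030. For Emx1 the nearest genes were Slc39a11 (0.039) and Pik3r2 (0.041). For Emx2 they were the Notch ligand gene Jag1 and the Polycomb gene Cbx2, both at 0.048, and for Nr2f1 Mtap7d1 (0.034) and the histone methyltransferase gene Ehmt2 (0.038). Lhx9 and Nr2f2 had no profile as near, but profiles were not scaled to the spread of each gene, which was large for both. Their larger distances thus do not show that fewer genes shared their high and low libraries. Their nearest genes were the metal transporter gene Slc39a8 at 0.067 and the potassium channel gene Kcnh2 at 0.069. These are the smallest of many distances over 9 libraries and are given as a description.

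Other transcription factors of the dorsal and areal network were read from a list of 25 genes, all tested. Relative to the library 2 rose and 6 fell, against 13.7% and 12% of all genes, and per cell 15 rose, against 61.1%. Their median log2 fold change was -0.02 relative to the library and 0.41 per cell, against -0.01 and 0.43 over all genes. Gli3, the zinc finger factor that keeps dorsal identity and allows the hem to form, had 203, 226, 205 and 238 CPM in dKO libraries 1 to 4, against 192, 182, 164, 184 and 191 CPM in WT libraries 1 to 5. Its relative log2 fold change was 0.25 (SE 0.06, edgeR adjusted p = 0.00875). Nr2f6, a nuclear receptor related to Nr2f1 and Nr2f2, was at 26.0 ± 0.520 CPM in dKO and 18.8 ± 2.39 CPM in WT (0.47, SE 0.08, edgeR adjusted p = 0.00218). It was thus the member of the COUP-TF family that rose, while Nr2f1 and Nr2f2 had values of -0.13 and -0.11 that did not pass.

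Among the 6 falls were genes of areal patterning and of young neurons. Bcl11a, a zinc finger factor of young neurons that also takes part in area formation, was at 197 ± 15 CPM in dKO and 298 ± 47.1 CPM in WT (-0.60, SE 0.10, edgeR adjusted p = 0.00217). The ETS factor Etv1 fell by 0.41 and the nuclear receptor Rorb by 0.26 on the log2 scale, with edgeR adjusted p of 0.0215 and 0.0246. None of these 6 passed per cell (-0.16 to 0.17), where 0 of the list of 25 were lower at an unadjusted p under 0.05, with DESeq2 or with limma-voom. Sp8 (0.30) and Etv4 (0.55), which lie downstream of rostral FGF signals, had values that did not pass relative to the library, with edgeR adjusted p of 0.0641 and 0.0645. In the fit without WT 2, 3 and 4, 0 rose (2 at an unadjusted p under 0.05, edgeR) and 1 fell among the 25, Etv1 at -0.64. Gli3, Nr2f6 and Bcl11a did not pass in that fit, at 0.18, 0.28 and -0.34 (edgeR adjusted p of 0.218, 0.0642 and 0.0511).

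The signals that set up these gradients come from the hem, which releases Wnt and BMP ligands, and from the rostral organizer, which releases FGFs. A list of 27 genes held Wnt, BMP and FGF ligands along with receptors, genes that respond to the signals and transcription factors. Of these 25 were tested, and 5 rose and 2 fell relative to the library, with a median of 0.17. The shares over all genes were 13.7% higher and 12% lower, so neither count is far from what all genes did. Bmp6 was at 13.2 ± 3.17 CPM in dKO and 4.28 ± 0.485 CPM in WT, a relative log2 fold change of 1.62 (SE 0.15, edgeR adjusted p = 6.11e-05). Bmp4 rose by 1.09, Fgf17 by 0.90, Wnt5a by 0.38 and the receptor gene Fgfr2 by 0.37. Lef1, a Wnt effector that in the medial pallium is needed for the hippocampus, fell to 18.8 ± 3.71 CPM in dKO, against 27.5 ± 1.60 CPM in WT (-0.54, SE 0.11, edgeR adjusted p = 0.00500), and Wnt7b fell by 0.16. Fgf8 itself was at 1.69 ± 0.839 CPM in dKO and 1.50 ± 0.833 CPM in WT and did not pass. With WT 2, 3 and 4 left out, 3 rose and 0 fell (1 at an unadjusted p under 0.05, edgeR) and the median was 0.04. The 3 were Bmp6, Wnt5a and Fgfr2, while Bmp4 was at 0.75, Fgf17 at 0.42 and Lef1 at -0.53, with edgeR adjusted p of 0.0695, 0.367 and 0.105.

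Genes that act after Emx1 and Pax6 in excitatory neurogenesis were lower against the library in part. Of 7 tested, 3 fell and 0 rose (0 rises also at an unadjusted p under 0.05, with DESeq2 and with limma-voom), with a median of -0.35 relative to the library and 0.09 per cell. Over all genes 12% fell and 13.7% rose relative to the library. Tbr1, a factor of early cortical neurons, had 81.6, 77.5, 85.2 and 90.9 CPM in dKO libraries 1 to 4, against 93.4, 107, 112, 112 and 108 CPM in WT libraries 1 to 5. Like Emx1, its dKO libraries lay below all WT libraries, as was the case for 9.74% of genes. The relative log2 fold change of Tbr1 was -0.35 (SE 0.06, edgeR adjusted p = 0.00197). Eomes, which marks intermediate progenitors, was at 111 ± 10.9 CPM in dKO and 146 ± 21 CPM in WT (-0.40, SE 0.10, edgeR adjusted p = 0.0136), with overlapping libraries. Neurog2, the proneural factor that Pax6 switches on, was at 83.5 ± 10.7 CPM in dKO and 102 ± 11.9 CPM in WT (-0.29, SE 0.10, edgeR adjusted p = 0.0480). In the restricted fit (WT 1, WT 5 and dKO), 0 of the 7 passed (2 falls at an unadjusted p under 0.05, edgeR).

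Neuronal markers were lower along with Emx1. Their summed level over 6 genes was 1890 to 2070 CPM in dKO and 2250 to 2600 CPM in WT, and 5 of the 6 fell relative to the library, among them Dcx at -0.48 and Elavl3 at -0.30. Over all genes 12% fell and 13.7% rose relative to the library. The summed level of 9 radial glia markers was 3680 to 4100 CPM in dKO and 2340 to 2700 CPM in WT, with 3 of the 9 rising relative to the library, Vim (1.25), Hes1 (0.85) and Nes (0.59), and 2 falling, Hes5 (-1.03) and Fabp7 (-0.23). This sum and its difference between the groups rested mostly on Vim and Nes. Vim was at 1690 ± 259 CPM in dKO and 709 ± 87.9 CPM in WT, and Nes at 1180 ± 73.6 and 784 ± 58.5 CPM. The sum thus does not stand for the 9 markers alike. With WT 1 and WT 5 as the WT libraries, 1 of the 6 neuronal markers fell, Dcx (5 at an unadjusted p under 0.05, edgeR), and Elavl3 had an edgeR adjusted p of 0.0652. In that fit Vim, Hes1 and Nes still rose and 0 radial glia markers fell (2 at an unadjusted p under 0.05, edgeR), with edgeR adjusted p of 0.0651 for Hes5 and 0.0653 for Fabp7. Pax6 and Lhx2, which are expressed in the same progenitors, had relative values of -0.05 and -0.08 beside these. The part of cell makeup in the level of Emx1 was not tested.

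Of 12 genes for proteins that act with LIM homeodomain and COUP-TF factors, 5 were lower in RNA against the library, against 12% of all genes. The list's median was -0.19. Ldb1, the adaptor through which Lhx2 and Lhx9 act on their targets, was at 201 ± 10.6 CPM in dKO and 231 ± 8.19 CPM in WT (-0.20, SE 0.04, edgeR adjusted p = 0.00604). Lmo1, a LIM-only protein that competes for that adaptor, was at 20.7 ± 3.11 CPM in dKO and 31.9 ± 1.86 CPM in WT (-0.61, SE 0.09, edgeR adjusted p = 0.000908). Lmo3 (-0.53) and Bcl11b, whose protein binds COUP-TFs (-0.55), also fell, as did Ssbp2, which stabilises the adaptor (-0.19). Per cell 5 of the 12 rose, against 61.1% of all genes, and Ldb1 at 0.24 and Lmo1 at -0.18 did not pass. In the fit of WT 1, WT 5 and the dKO libraries the fall of Lmo1 alone passed, at -0.69, and 6 falls had an unadjusted p under 0.05 (edgeR). Over all genes 0.972% passed as lower in that fit.

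The antisense or divergent neighbours of the factors gave a further reading of the same loci. Emx2os, which runs opposite to Emx2, had 10.8, 13.7, 15.1 and 9.77 CPM in dKO libraries 1 to 4, against 20.6, 16.6, 16, 16.5 and 14.0 CPM in WT libraries 1 to 5. It fell relative to the library (-0.42, SE 0.13, edgeR adjusted p = 0.0398), while Emx2 itself was at -0.11 and did not pass. A830082K12Rik, which neighbours Nr2f1, had 23.1, 22.5, 23.5 and 21 CPM in dKO, against 27.5, 26.9, 28.4, 28.6 and 23.7 CPM in WT. Its dKO libraries lay below all WT libraries, as was the case for 9.74% of genes, though dKO 3 and WT 5 nearly met. Its relative log2 fold change was -0.26 (SE 0.06, edgeR adjusted p = 0.0135). Pax6os1 was barely expressed, at 0.616 ± 0.109 CPM in dKO and 0.719 ± 0.160 CPM in WT, and did not pass. The strand setting of the counting is not given in the sources used here, so reads of these genes and of their partners may be shared. With WT 2, 3 and 4 left out, 0 of the 3 passed (1 fall at an unadjusted p under 0.05, edgeR), with Emx2os at -0.46 and A830082K12Rik at -0.18.

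**Figure D4:**
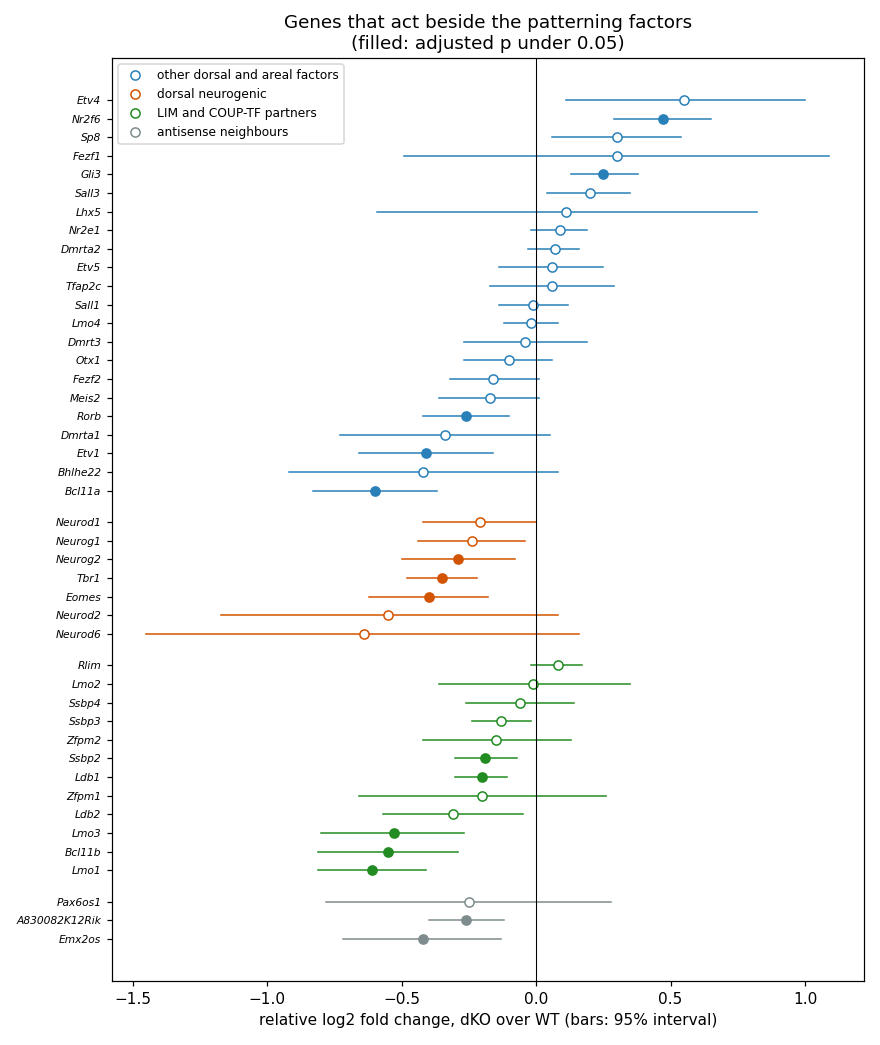
Relative log2 fold change, dKO over WT, of the other dorsal and areal factors reported here (blue), dorsal neurogenic genes (orange), LIM and COUP-TF partners (green) and antisense neighbours (grey), with 95% intervals; filled points passed an adjusted p under 0.05 (edgeR). Gli3 and Nr2f6 are the filled points on the right, and the filled points on the left run from -0.19 for Ssbp2 to -0.61 for Lmo1.

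Territories that border the dorsal telencephalon were read in the same way. Of 18 ventral telencephalon genes, 10 fell relative to the library and 5 per cell, among them Sp9 at -1.05, Dlx1 at -0.86, Dlx5 at -0.66 and Gad2 at -0.57 relative to the library. Over all genes 12% fell relative to the library and 0.698% per cell. Of 6 genes of the pallial-subpallial boundary, where Pax6 is high, Tgfa (-0.44) and Nrg3 (-0.49) fell and the list's median was 0.00. Few markers of other cell types passed relative to the library. Reln among 4 Cajal-Retzius markers and Hba-a1 among 5 erythroid markers fell, at -0.43 and -0.58, and among the tested markers of eye (2), olfactory epithelium (4), endothelium (8), mesenchyme and pericytes (9) and microglia (6) edgeR called 0 in either direction. At an unadjusted p under 0.05 there were 4 higher among the microglia markers and 1 lower among the mesenchyme markers, and DESeq2 called 2 microglia markers higher. In the restricted fit, 4 of the 18 ventral genes fell (10 at an unadjusted p under 0.05, edgeR), Sp9, Dlx1 and Dlx5 among them, and Gad2 was at -0.51 (edgeR adjusted p = 0.0543). Over all genes 0.972% passed as lower in that fit. Tgfa, Nrg3 and Reln did not pass in it, at -0.31, -0.18 and -0.23 with edgeR adjusted p of 0.452, 0.549 and 0.32. Of the 5 erythroid markers 2 fell there (3 at an unadjusted p under 0.05, edgeR), with a list median of -0.94. They were Hba-a1, by 0.80 (edgeR adjusted p = 0.0314), and Alas2, by 0.98 (edgeR adjusted p = 0.0257).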

How the data were processed

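Total RNA was sequenced from telencephalons of 4 dKO and 5 WT embryos; litters are not given, and p-values measure the spread between these libraries. Each deposited file lists raw read counts of 1 library, not normalized, for 34590 genes and 92 ERCC spike-ins. STAR, HTSeq and mm9 are named in the submitters' processing notes; versions, annotation and strand setting: not given in the sources used here. Rows of reads in no gene stayed out of library sizes and tests.

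Counts were analysed in R 4.3.3 with edgeR 4.0.16 (filterByExpr, quasi-likelihood test, Benjamini-Hochberg over 17182 genes holding 99.9% of counts). The per-cell fit set library sizes to ERCC totals, and the relative fit used TMM; the spread was drawn towards the trend with 28.5 and 4.37 prior degrees of freedom, against 7 residual ones. Every per-cell test shares the 9 ERCC totals. CPM were TMM-scaled. Ratios were tested by exact permutation over 126 assignments, two-sided. No libraries of a group matched within sampling noise. Alternatives were DESeq2 1.42.0, limma-voom (limma 3.58.1), other filters and scalings, a tested change of at least 1.2-fold, the replicate block and left-out libraries; the one without WT 1 and 5 was chosen after seeing the data. Exon lengths were unions of GENCODE M21 exons (GRCm38), a different build.

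The genes and lists were chosen with earlier results of these data known. Named were the 7 factors, Lats1, Lats2, any gene of the lists of other dorsal and areal factors, antisense neighbours and dorsal neurogenic genes, and of other lists the 4 genes with the smallest relative adjusted p (2 in lists under 10), plus for each factor the nearest profiles. Fgf8, Fgf17, Wnt5a, Wnt7b, Ssbp2, Hes1, Hes5, Fabp7, Reln, Hba-a1, Tcf7l2, Barhl2, Sim1, Shox2 and Foxb1 were named where a count was small or a value needed it, after their values were seen. A few genes of the lists are counted but not reported here by name.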

Additional observations from a re-analysis of the deposited data

Results flagged for a closer look

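Within-group outliers were searched over 38 gene and ratio groups of 4 or 5 libraries with Dixon's criterion, which chance meets in about 1 in 20 groups. It was met in 1 of the 38: Nr2f1 stood at 216 CPM in WT 5, with a gap to the next WT library that made up 0.776 of the group's range.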

How the results depend on the processing

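Each of the 7 factors had at least 450 counts in every library. Emx1 relative to the library kept its direction in all 19 alternatives (-0.39 to -0.17) and passed in 17, missing without WT 2, 3 and 4 and when a change of at least 1.2-fold was tested; these settings left 0 of the 7 factors lower, and the fall of Emx1 passed without any single library (-0.34 to -0.25). The count of 6 rising per cell was 2 without WT 2, 3 and 4 (Pax6 and Lhx2), 0 with the 1.2-fold test, and 2 to 6 with 1 library left out (2 without WT 2, dKO 2 or dKO 3; 4 without WT 4). DESeq2 lost Nr2f2 (adjusted p = 0.0534) and TMM over the ERCC counts lost Emx2 (edgeR adjusted p = 0.0558). Values that did not pass and changed sign were those of Lhx9 relative to the library (0.01 with the replicate block, 0.15 without WT 1 and 5, -0.12 to 0.08 with 1 library left out), Emx2 (0.01 without WT 1 and 5) and Nr2f2 (0.03 without WT 1 and 5, -0.22 to 0.01 with 1 library left out). Among the log2 ratios, without WT 2, 3 and 4 Nr2f1 over Emx2 was 0.11, Emx1 over Emx2 0.13 and Lhx9 over Lhx2 -0.24, and without WT 1 and 5 Pax6 over Emx2 was -0.03. With 1 library left out these ranged from -0.02 to 0.17 for Pax6 over Emx2, from -0.07 to 0.04 for Nr2f1 over Emx2, from -0.28 to -0.06 for Emx1 over Emx2, and from -0.09 to 0.18 for Lhx9 over Lhx2. The cause of these changes was not tested. Gene counts per ERCC count differed by 0.45 on the log2 scale with and without WT 2, 3 and 4, where 15 assignments cannot give a p below 0.0667. Relative to all genes 407 rose and 170 fell without WT 2, 3 and 4, and 546 and 276 with the 1.2-fold test, against 2355 and 2067; per cell 6382 rose with the 1.2-fold test, against 10495, and falls numbered 45 to 288, against 120. Replicate numbers did not pair the libraries: same-numbered libraries had correlations of -0.15, -0.13, -0.26 and 0.14, and 0 of 4 matched its own number best. The replicate block left 6 factors rising per cell and 1 falling relative to the library, and over pairs 1 to 4 gene counts per ERCC count differed by 0.48 (exact sign-flip p = 0.125, the smallest that 4 pairs allow).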
